A study of Homo sapiens with 44 samples.

Results

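Interferon γ (IFNγ) opened 1047 of the 407383 accessible-chromatin peaks measured in Ccd18-Co fibroblasts without a matching response to interferon α (IFNα), and these 1047 peaks are described here. Ccd18-Co is an established fibroblast line from human colon. The members were chosen by their measured coverage. A peak was taken where its mean log2 level was at least 1 above that of unstimulated cells with IFNγ, under 0.3 above it with IFNα, and where its mean IFNγ coverage was at least 3 per Mb. The members therefore rest on 12 libraries (4 unstimulated, 4 IFNγ and 4 IFNα), and all contrasts among these 12 are given as descriptions, with no test.

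Accessibility was measured by ATAC-seq, in which a transposase inserts adaptors into open DNA, in 44 libraries that form 11 groups of 4 replicates. All groups are the same unmodified line in serum-free medium. Cells were left unstimulated or received 10 ng/ml of IFNγ, IFNα, IL-6, IL-13, IL-17A, IL-22, TNF, oncostatin M (OSM) or TGF-β1, or IL-1β, for which the labels and the study's methods give 0.1 ng/ml and a legend in the study gives a lower dose. The study's methods describe starvation without serum and then stimulation for a day, so the values show chromatin after that time only. A single cell line was used, and the labels do not say whether replicates were separate cultures, so the p-values given further on measure the spread between these libraries, which may be technical.

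Levels are given as coverage per Mb, which is the base coverage in a peak per megabase of coverage that the library holds over all peaks, after a factor for library composition. The libraries held 148.8 to 823.1 Mb of such coverage, with IL-6 replicate 4 as the shallowest and IFNα replicate 2 as the deepest. Of the fibroblast markers, COL1A1, COL1A2, COL3A1, COL6A3 and PDGFRB had open promoter peaks in all libraries, from 5.44 to 37.0 per Mb, whereas LUM and VIM had medians of 0.472 and 1.58 and DCN and THY1 had no promoter-class peak. Endothelial PECAM1, VWF and TEK had medians of 0.328 to 0.433 and CDH5 of 1.54, with up to 3.40. The epithelial keratin gene KRT8 was open in all libraries, at 2.87 to 7.26 with a median of 4.49, but there was no promoter-class peak under the names EPCAM, CDH1, PTPRC, CD3E or SPI1. Of the listed leukocyte markers, the only one with a promoter-class peak, CD14, lay at 0.671 to 0.903 per Mb in unstimulated and at 1.48 to 2.79 per Mb in IFNγ libraries, and its part in the results was not tested. Higher CD14 levels were not particular to IFNγ. IFNα libraries read 1.34 to 2.23, and over all libraries CD14 ran from 0.363 to 3.49, the highest with IL-6.

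IFNγ signals through its own receptor and the kinases JAK1 and JAK2 to gamma-activated sites (GAS) in DNA. IFNα uses another receptor and acts mainly at interferon-stimulated response elements (ISRE), which a complex with STAT2 and IRF9 binds. IFNγ is also the classical inducer of IRF1, a factor that binds ISRE-like sequence, and of CIITA, the master regulator of MHC class II genes, which fibroblasts do not express at rest.

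A set of member sequences shows the kinds of matches found. Each is read from the plus strand of hg38, 5′ to 3′, in lower case, and capitals mark matches to TTCNNNGAA (the GAS string, which reads the same on both strands) or to GAAA, any 2 bases, GAAA on either strand (the ISRE string). The first 4 are from the GBP, antigen-processing and APOL groups described below, and the last holds a pair of GAS strings whose starts are 21 bases apart, a feature taken up below.
GBP5 (distal peak, chr1:89286983-89287102): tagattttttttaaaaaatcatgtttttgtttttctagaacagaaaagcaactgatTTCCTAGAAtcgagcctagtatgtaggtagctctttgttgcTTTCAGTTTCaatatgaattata
GBP1 (distal peak, chr1:89070094-89070213): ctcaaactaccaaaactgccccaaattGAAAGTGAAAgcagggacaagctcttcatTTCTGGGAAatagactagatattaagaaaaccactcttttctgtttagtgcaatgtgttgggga
TAP1 (promoter peak, chr6:32854517-32854636): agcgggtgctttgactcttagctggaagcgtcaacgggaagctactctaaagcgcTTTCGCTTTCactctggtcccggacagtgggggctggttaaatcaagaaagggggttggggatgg
APOL1 (intronic peak, chr22:36255042-36255161): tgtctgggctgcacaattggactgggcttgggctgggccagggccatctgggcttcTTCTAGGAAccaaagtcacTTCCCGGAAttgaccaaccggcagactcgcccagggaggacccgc
PTPN2 (intronic peak, chr18:12904110-12904199): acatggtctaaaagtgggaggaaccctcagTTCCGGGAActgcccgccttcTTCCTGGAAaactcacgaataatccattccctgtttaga
The names are those in the deposited peak names and do not show which gene a peak acts on.

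IFNγ opened 3235 peaks by the first and last parts of the rule, and the members are 32.4% of them. Another 500 of the 3235 also changed by 1 or more with IFNα, and 1688 had an IFNα change from 0.3 to under 1. On the rule's scale, the members' IFNγ change had a median of 1.30 (log2) and ran from 1.00 to 3.34, with 102 members at 2 or more and 406 under 1.2. Their IFNα change had a median of 0.0645 and ran from -1.30 to 0.30, lying below 0 in 406 members and below -0.5 in 52. Mean IFNγ coverage ranged from 3.00 to 34.4 per Mb, with a median of 5.03. The median over members was 1.69 per Mb in unstimulated cells, 5.09 with IFNγ and 1.74 with IFNα, while over all tested peaks the unstimulated median was 0.827. In 179 members the unstimulated mean was under 1 per Mb.

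**Figure D1:**
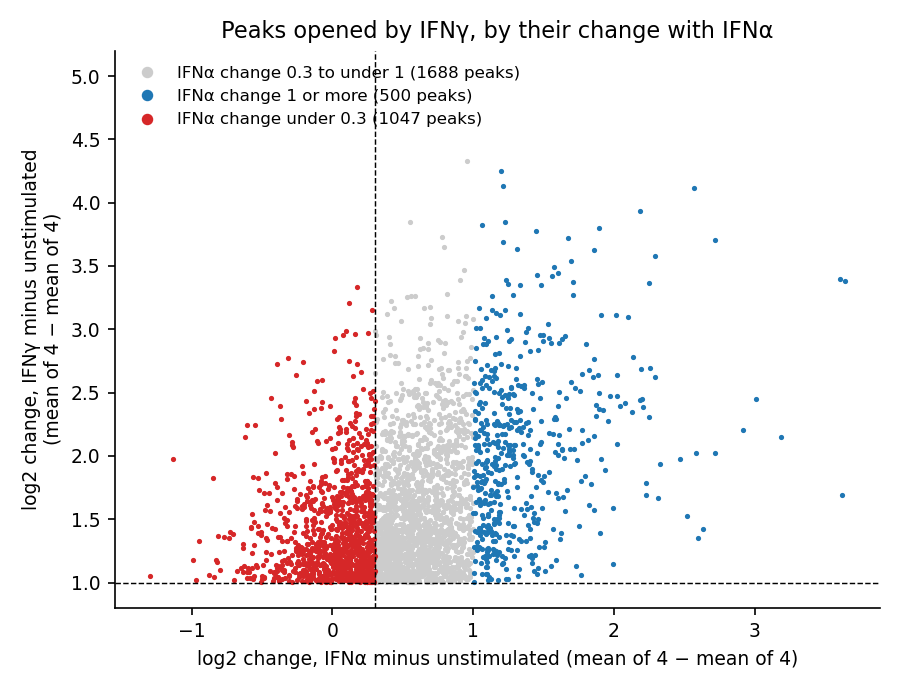
Log2 change with IFNγ (y axis) against log2 change with IFNα (x axis), each as the mean of 4 libraries minus the mean of the 4 unstimulated libraries, for the 3235 peaks opened by IFNγ. The 1047 members (red) lie left of the dashed line at 0.3, and the cloud runs on without a gap into the 1688 peaks between 0.3 and 1 and the 500 above 1.

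The thresholds cut a continuous cloud. On the IFNγ side, the members just inside carried the names TIMM22 (1.0009), MSI2 (1.0010) and ERBIN (1.0015), and the peaks just outside carried DPY19L1 (0.9996), PPA1 (0.9995) and NKX2-3 (0.9990). At the IFNα limit, MMP24 (0.30), CBLB (0.2998) and AIM2 (0.2992) lay just inside and SLC15A4 (0.3001), MTCL1 (0.3002) and ACTR3C (0.3009) just outside. At the coverage limit, LINC01232 (3.0041 per Mb), SLC25A47 (3.0053) and IFNGR2 (3.0071) were kept and PALLD (2.9960), CSRP3 (2.9951) and LINC01080 (2.9949) were not.

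All 1047 members passed the filter on low coverage, with 407174 peaks tested in all. In 979 members each of the 4 IFNγ libraries lay above each of the 4 unstimulated ones, a separation found in 3.89% of all tested peaks. In 954 members the 4 IFNγ libraries lay above the 4 IFNα libraries, against 3.33% of tested peaks. In 556 members the 4 IFNγ libraries lay above all other 40 libraries of the series, against 0.568% of tested peaks. Over all tested peaks, limma's test called 1.36% higher with IFNγ than in unstimulated cells and 0.834% higher with IFNγ than with IFNα, at an adjusted p under 0.05. Of the members, 881 and 777 were among these. The rule used these same libraries, so nothing is read from these counts.

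Guanylate-binding proteins (GBPs) are interferon-induced GTPases that act against intracellular pathogens. Of the 9 listed interferon GTPase genes 6 named a member (GBP1 to GBP6). Of the 92 peaks that carry a listed name, 14 (15.2%) were members, against 0.257% of all peaks. Another 4 (4.35%) were opened by both interferons, against 0.123% of all peaks. The members lie on chromosome 1, and 2 runs of them hold 7 over 85.4 kb from GBP3 to GBP2 and 6 over 96.1 kb from GBP5 to GBP6. The strongest was the GBP5 peak at chr1:89286764-89287264, in intergenic sequence 14.2 kb from the nearest start of GBP5, whose sequence is shown above with 1 GAS and 1 ISRE string. Its coverage per Mb was 0.355, 0.191, 1.05 and 0.86 in unstimulated cells, 0.367, 0.979, 0.285 and 1.61 with IFNα, and 9.80, 11.2, 9.54 and 11.0 with IFNγ. Every IFNγ library stood far above every other library, and the 32 libraries of the other cytokines lay between 0 and 1.42. The IFNγ mean was 16.9-fold the unstimulated mean, and the log2 change was 3.36 with an SE of 0.39 for IFNγ and 0.19 for IFNα.

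The second GBP5 peak, at chr1:89278934-89279434 and 6.32 kb from the start, read 0.543, 0.938, 0.393 and 0 in unstimulated cells, 0.628, 0.141, 1.00 and 0.245 with IFNα, and 6.75, 5.59, 7.11 and 7.07 with IFNγ. Here too the IFNγ libraries were separated from the rest, although the peak held neither string. Of the 5 GBP1-named members, the one at chr1:89069928-89070428 held 2 GAS strings and 1 ISRE string and had means of 0.715 per Mb in unstimulated, 0.420 in IFNα and 6.10 in IFNγ libraries. The member at chr1:89045338-89045838, with a single GAS string, had means of 0.543, 0.400 and 6.43 in the same order. At the promoter of GBP4, 0.007 kb from its start, IFNγ libraries read 3.41, 4.92, 4.79 and 4.62 against 0.632 to 1.21 in unstimulated and 0.778 to 1.42 in IFNα libraries. The GBP2 peak 0.067 kb from the start of that gene was already open, at 7.34 to 9.60 per Mb in unstimulated cells, and stood at 17.0 to 20.8 with IFNγ. GBP genes are close relatives, so reads from shared sequence may be assigned to the wrong copy.

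IRF1, the transcription factor that carries the IFNγ signal to secondary targets, named 7 members, the most of any gene, within 20.8 kb on chromosome 5. The same stretch also held 4 peaks opened by both interferons and 13 between the limits, among 30 peaks in all. The member at chr5:132475984-132476484, in an intron 3.19 kb from the nearest start, read 0.874, 1.33, 1.62 and 0.411 in unstimulated cells, 1.03, 0.90, 0.414 and 0.782 with IFNα, and 8.82, 8.30, 8.88 and 9.72 with IFNγ. The IFNγ libraries did not overlap the others, of which the highest among the other 8 cytokines was 2.55. The remaining 6 members at IRF1 had IFNγ means from 4.92 to 7.80 per Mb, folds over unstimulated of 2.34 to 6.62 and IFNα changes from -0.25 to 0.30. Only 1 of the 7, at chr5:132495035-132495535, held a GAS string and none held the ISRE string. IRF1 was the single gene of 10 listed interferon regulatory factors that named a member. Of the 227 peaks of that list 3.08% were members, against 0.257% of all peaks.

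MHC class II genes, which present antigen to CD4 T cells, and their regulator were the list with the most members by number. Of the 20 listed genes 10 named a member (CIITA, HLA-DRA, HLA-DRB1, HLA-DRB5, HLA-DPB1, HLA-DQA1, HLA-DMB, HLA-DOA, HLA-DOB and CD74). Of the 247 peaks carrying a listed name, 17 (6.88%) were members, against 0.257% of all peaks. The share in the GBP list was larger, at 15.2%. A single peak, at CIITA, was opened by both interferons (0.405%, against 0.123% of all peaks). The HLA-DRA promoter peak (chr6:32439568-32440068, 0.06 kb from the start) read 0.792, 1.14, 1.86 and 1.39 in unstimulated cells, 1.33, 1.27, 0.747 and 0.537 with IFNα, and 11.4, 15.5, 9.78 and 10.8 with IFNγ. The promoter was thus nearly closed in unstimulated and IFNα libraries alike and open in all 4 IFNγ libraries, at 9.18-fold the unstimulated mean. The highest of the other 32 libraries read 3.20.

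The HLA-DRB1 promoter (chr6:32589593-32590093, 0.005 kb from the start) read 1.98 to 2.64 in unstimulated, 2.23 to 4.26 in IFNα and 13.3 to 18.1 per Mb in IFNγ libraries. HLA-DRB5, whose reads cannot be well separated from those of HLA-DRB1, had a promoter mean of 1.37 per Mb in unstimulated, 1.02 in IFNα and 4.62 in IFNγ libraries. HLA-DPB1, another class II chain gene, was partly open before stimulation, at 3.50 to 4.74, and stood at 11.2 to 15.1 with IFNγ, with a log2 change of 1.67 (SE 0.25) for IFNγ and -0.11 for IFNα. CIITA itself named a weaker member in an intron (chr16:10879172-10879672, 0.453 kb from a start), at 0.548 to 1.70 in unstimulated, 0.842 to 1.57 in IFNα and 2.79 to 5.43 in IFNγ libraries. The other 32 libraries reached 3.29 at this peak, so some exceeded the lowest IFNγ library.

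CD74, the invariant chain that escorts class II molecules, named 4 members within 12.4 kb. The largest of them by coverage, in an intron 2.80 kb from the start, read 8.38 to 11.4 in unstimulated, 7.72 to 12.4 in IFNα and 23.6 to 29.7 per Mb in IFNγ libraries. The one with the largest fold, at chr5:150411204-150411704, read 5.28, 4.37, 5.44 and 1.58 with IFNγ, so IFNγ replicate 4 lay close to the highest IFNα value of 1.36. The HLA-DMB and HLA-DOA members, 0.065 and 19.9 kb from the nearest starts of these genes, had IFNγ means of 12.4 and 7.02 per Mb. Their unstimulated means were 4.19 and 1.25. The HLA-DOB-named member lay in a UTR of TAP2 by the GENCODE annotation, at 1.55 to 3.12 unstimulated and 4.22 to 6.71 with IFNγ. The HLA-DOA peak held 1 GAS string, and the described peaks at HLA-DRA, HLA-DRB1, HLA-DPB1 and CIITA held neither string.

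**Figure D2:**
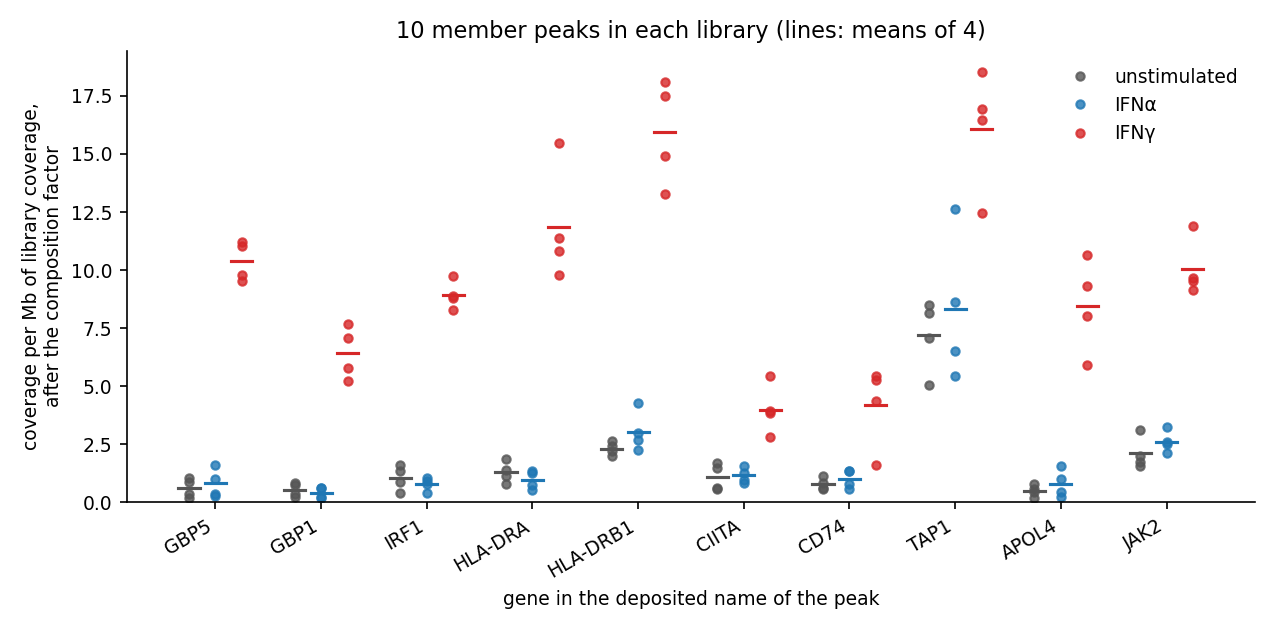
Coverage per Mb (y axis) of 10 member peaks, named by the gene in the deposited peak name (x axis), in each unstimulated, IFNα and IFNγ library, with lines at the means of 4. The 4 IFNγ points stand above all unstimulated and IFNα points at 9 peaks, while at TAP1 the lowest IFNγ library (12.5) lies level with the highest IFNα library (12.6), and at CD74 the lowest IFNγ library (1.58) lies just above the highest IFNα library (1.36).

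MHC class I molecules present antigen to CD8 T cells. Of 16 listed class I and antigen processing genes with a peak, 3 named a member (HLA-E, TAP1 and NLRC5) and 5 named a peak opened by both interferons (HLA-C, HLA-E, B2M, PSMB8 and NLRC5). Of their 272 peaks, 3 (1.10%) were members and 11 (4.04%) were opened by both, against 0.257% and 0.123% of all peaks. At the TAP1 promoter peak, 0.373 kb from the start of PSMB9, which shares this promoter with the peptide transporter TAP1, unstimulated libraries read 5.04, 8.15, 8.47 and 7.08, IFNα libraries 5.42, 8.63, 6.51 and 12.6, and IFNγ libraries 18.5, 16.9, 16.4 and 12.5. IFNα replicate 4 overlapped the lowest IFNγ library, so the place of this peak among the members rests on the other 3 IFNα libraries. NLRC5, the class I counterpart of CIITA, named an intronic member at 0.191 to 0.550 in unstimulated, 0.369 to 0.879 in IFNα and 2.62 to 5.52 per Mb in IFNγ libraries. The HLA-E member, 3.68 kb from the start, read 2.95 to 3.74 with IFNγ against 0.541 to 1.44 in unstimulated and 0.654 to 1.16 in IFNα libraries.

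The 29 listed antiviral effectors of type I interferon, which include the IFIT, OAS and MX families, carried 329 peaks. Of these 25 (7.60%), named for 17 of the genes, were opened by both interferons, against 0.123% of all peaks, and 5, named for IFIT2, OASL, IFI6, IFIH1 and DDX60, lay between the limits. None was a member, which is near the share of all peaks that were members (0.257%). Of 10 chemokine genes, CCL8 and CCL13 named a member each, and CXCL10, CXCL11, CCL2 and CCL8 named peaks opened by both. At CCL8, IFNγ libraries read 2.71 to 3.88 and IFNα libraries 0.810 to 2.47 per Mb, a narrow gap. The 3 adhesion genes and the 8 SOCS genes, with 79 and 119 peaks, named no member, which is near the 0.257% of all peaks.

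Of the 7 listed interferon receptor and JAK kinase genes, 2 named a member (IFNGR2 and JAK2). Of their 251 peaks, 3 (1.2%) were members and 0 were opened by both interferons, against 0.257% and 0.123% of all peaks. JAK2, the kinase of the IFNγ receptor, named a member in intergenic sequence 51.0 kb from its start (chr9:4933157-4933657), at 3.09, 1.57, 1.99 and 1.75 in unstimulated cells, 2.50, 2.59, 3.24 and 2.10 with IFNα, and 9.13, 11.9, 9.67 and 9.51 with IFNγ. The IFNγ libraries were tightly grouped and 4.79-fold above the unstimulated mean. The IFNGR2 member, near the second chain of the IFNγ receptor, read 1.2, 3.96, 3.73 and 3.33 with IFNγ, and its first replicate lay inside the unstimulated range of 0.381 to 2.28.

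APOL genes, a chromosome 22 family of which APOL1 lyses trypanosomes, named 6 members over 99.5 kb. With the listed cell death genes they carried 228 peaks. Of these, 8 (3.51%) were members and 4 (1.75%) were opened by both interferons, against 0.257% and 0.123% of all peaks. At APOL4 (chr22:36208127-36208627) unstimulated libraries read 0.181, 0.452, 0.782 and 0.554, IFNα libraries 1.55, 0.451, 0.201 and 0.991, and IFNγ libraries 8.0, 5.90, 10.6 and 9.30. The IFNγ mean was 17.2-fold the unstimulated mean, and the highest of the other 32 libraries was 1.32. The APOL1 member, with the 2 GAS strings shown above, read 1.92 to 3.03 in unstimulated, 1.39 to 2.31 in IFNα and 6.87 to 9.50 in IFNγ libraries. The death ligand gene TNFSF10 and the death receptor gene FAS also named members. The TNFSF10-named member, 20.0 kb from the nearest coding start, which is that of NCEH1, read 0.668 to 2.44 in unstimulated and 5.38 to 6.64 in IFNγ libraries. At FAS, unstimulated replicate 1 (4.21) lay close to the lowest IFNγ library (4.30).

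Among the remaining listed genes, IDO1, which degrades tryptophan, named an intronic member 1.16 kb from its start at 0.572 to 1.48 in unstimulated, 0.627 to 1.97 in IFNα and 6.76 to 8.79 in IFNγ libraries. CFB, the complement factor B gene, named a promoter member at 0.671 to 2.57, 1.38 to 2.34 and 3.66 to 6.75 in the same order. Of the 12 members with the largest difference between the interferons, 5 lay near genes of no listed group. The EID2-named peak (chr19:39557803-39558303) stood at 13.6, 14.5, 14.0 and 16.4 per Mb with IFNγ against 0.654 to 1.65 with IFNα. The C22orf42-named peak stood at 6.12 to 8.69 with IFNγ, with unstimulated replicate 2 and IFNα replicate 3 at 0. The GMDS-named peak stood at 6.08 to 8.62 with IFNγ, with IFNα replicate 1 at 0. The OTOGL-named peak stood at 8.42 to 13.8 with IFNγ, against 0.0426 to 2.84 with IFNα.

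Members were mostly scattered. They carried 939 gene names, of which 852 were carried by a single member, and the median distance to the nearest other member was 476 kb. In all, 180 members lay in 74 clusters with gaps of at most 50 kb, and 7 clusters held 4 members or more. Apart from the GBP, IRF1, APOL and CD74 clusters, these were SLC25A47 with WDR25 (5 members over 36.3 kb) and HLA-DOA with HLA-DPB1 (4 over 57.3 kb). The 4 SLC25A47-named members had IFNγ means of 3.05 to 9.94 per Mb. Of the 939 names, 50 also named a peak opened by both interferons and 196 named one between the limits. Those sets differ in size, at 500 and 1688 peaks, and the shares over all gene names were not counted, so nothing is read from these counts.

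Most members lay away from promoters. The deposited names class 37 members (3.53%) as promoter, against 7.15% of all tested peaks and 8.80% of the peaks opened by both interferons. By the GENCODE annotation of hg38, 647 member centres lay in introns, 308 between genes, 48 in exons and 44 in UTRs, and 12.6% lay within 1 kb of a transcript start, against 20.2% of the peaks opened by both and 19.5% of all tested. Mean GC content was 42.6% in members, 44.3% in peaks opened by both and 46.7% in all tested peaks. These shares are descriptions, and the sets differ in how they were chosen.

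The GAS string was present in 281 members (26.8%), against 23.0% of peaks opened by both interferons and 17.2% of all tested peaks. A stricter form, TTCCNGGAA, which is a subset of the former, was present in 71 members (6.78%), against 4.00% and 2.29%. The ISRE string was present in 473 members (45.2%), against 59.6% of peaks opened by both and 9.11% of all tested peaks. Both strings occurred in 102 members, in 22 of which they overlapped, the GAS string alone in 179, the ISRE string alone in 371 and neither in 395. For comparison, the AP-1 string TGANTCA was present in 24.3% of members and 25.7% of tested peaks, and an NF-κB string (GGGA, any 2 bases, TTCC) in 2.10% and 2.78%. All strings were searched on both strands over the whole 500 bases. A match does not show binding, and its absence concerns these letters in this window only.

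A spacing recurred among the members with several GAS strings. Of the 64 members with at least 2 GAS strings, 22 held a pair with starts 21 bases apart, which leaves 12 bases between the strings, and 7 and 4 held pairs 20 and 19 bases apart. No other distance from 10 to 60 bases was found in more than 1 member. The pair 21 bases apart was present in 2.10% of members, 0.770% of the peaks between the limits, 0.40% of the peaks opened by both interferons and 0.055% of all tested peaks (224 peaks). The feature was noticed in member sequences and counted afterwards, so these shares are a description.

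The 22 members lie on 12 chromosomes, none in the promoter class and 18 of them over 10 kb from the nearest coding start. None held the ISRE string. They resemble each other beyond the pair itself. Over 90 bases around the pair, aligned without gaps and in the better orientation, 18 of the 22 matched another of them at 60% of bases or more, with a median best identity of 80.6%. Repeat annotation was not used here, and reads from such similar copies may be assigned to the wrong one, which was not tested.

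The 22 peaks were then followed in libraries that the rule did not use. Among them, the CXCL17 and BRI3 peaks were also named for their OSM change and the IGSF23 peak for its TNF change. The PTPN2 peak was singled out after its values were seen. The pair was noticed in member sequences after the data were seen, so its counts with OSM are a description and not an independent test. With OSM, a cytokine of the IL-6 family that signals through gp130 and STAT3, their median level was 8.24 per Mb (8.40, 8.52, 8.58 and 7.47 in the 4 libraries), close to the 8.70 seen with IFNγ. In unstimulated cells it was 2.18, and in IFNα, IL-1β, TNF, TGF-β1, IL-22, IL-17A, IL-6 and IL-13 libraries it lay between 1.30 and 2.57. In limma's test of OSM against the mean of the other 7 non-interferon cytokines, 20 of the 22 were called higher, and the 2 that were not carried the names EEPD1 and ACER3. Under the alternative scalings, filters and left-out libraries the 20 were 18 to 20. The same contrast called 27.2% of all 224 tested peaks with the pair higher and 6.25% of all tested peaks. IL-13 called 5 of the 22 higher (22.7%, against 5.36% of tested peaks with the pair), among them IGSF23 with an IL-13 mean of 7.67 per Mb and CXCL17 with 3.94. IL-1β, TNF and TGF-β1 each called 7 lower (31.8%), in contrasts whose mean of the others includes OSM. Of the 224 tested peaks with the pair, these contrasts called 5.80%, 6.70% and 9.38% lower.

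**Figure D3:**
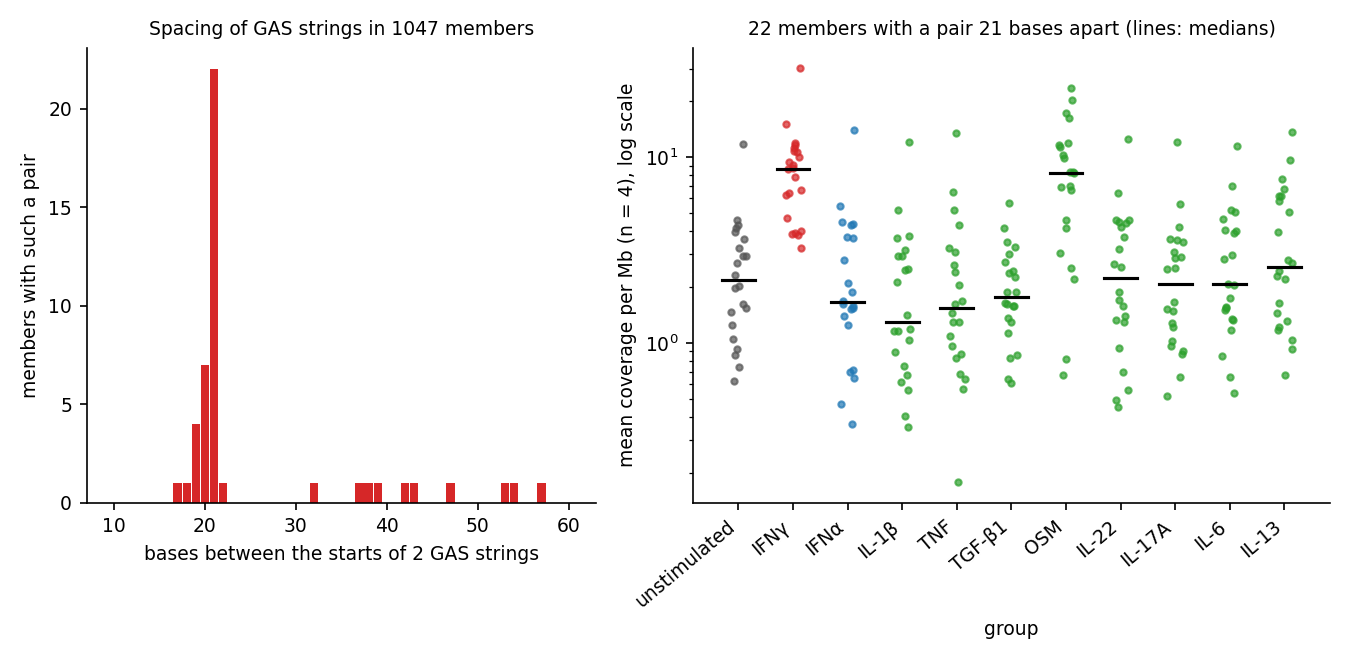
Left, number of members (y axis) with GAS strings whose starts lie a given number of bases apart (x axis), with 22 at 21 bases. Right, mean coverage per Mb on a log scale (y axis, n = 4 libraries per point) of these 22 members in each group (x axis), with lines at the medians, of which IFNγ (8.70) and OSM (8.24) stand above the other groups (1.30 to 2.57).

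The IGSF23-named peak had the lowest p of the 22. It read 2.66, 3.46, 1.35 and 1.86 in unstimulated cells, 2.29, 3.55, 3.01 and 2.33 with IFNα, 7.0, 12.8, 10.2 and 7.76 with IFNγ, and 18.3, 22.1, 22.5 and 18.8 with OSM. OSM libraries thus stood above even the IFNγ libraries, and the log2 difference from the other 7 cytokines was 2.54 (SE 0.21, limma, adjusted p = 2.11e-23). The CXCL17-named peak, in an intron 23.9 kb from the start of CEACAM1, read 10.6, 9.60, 9.49 and 11.5 with OSM and 7.11 to 8.36 with IFNγ (2.81, SE 0.28, limma, adjusted p = 4.28e-17). At the BRI3-named peak, in an intron of BRI3, OSM libraries read 12.8, 10.6, 12.3 and 11.0 and IFNγ libraries 7.32 to 10.1 (2.78, SE 0.26, limma, adjusted p = 3.12e-18). By contrast, the ACER3-named peak read 5.03, 7.56, 5.93 and 6.54 with IFNγ but 0.319, 1.05, 0.447 and 0.873 with OSM, level with 0.682 to 1.2 in unstimulated cells (0.09, SE 0.30, limma, adjusted p = 0.886).

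PTPN2, a phosphatase that dephosphorylates JAK1, named 3 members and was singled out after its values were seen. The one with the GAS pair, in an intron 19.9 kb from the start, read 1.22, 2.75, 1.68 and 2.26 in unstimulated cells, 1.13, 1.61, 1.70 and 1.61 with IFNα, 8.87, 11.0, 9.70 and 10.4 with IFNγ, and 11.0, 10.8, 8.79 and 8.97 with OSM. Both IFNγ and OSM libraries were separated from the rest, with a log2 difference of 2.48 (SE 0.25, limma, adjusted p = 2.11e-16) for OSM. The other 2 PTPN2 members had IFNγ means of 3.39 and 6.94 per Mb and unstimulated means of 1.24 and 3.06.

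The comparison of each other cytokine with the mean of the remaining 7 used 32 libraries that had no part in the rule. It asked which members differed with 1 cytokine from that mean, so a call alone does not show a change from unstimulated cells. A member counts as called at an adjusted p under 0.05 over all 407174 tested peaks. A peak can be called lower with 1 cytokine because another of the 7 raised it. In all, 402 members (38.4%) were called for at least 1 cytokine, against 20.6% of all tested peaks, and 645 members (61.6%) for none. Members called higher for at least 1 numbered 301 (28.8%), against 14.6% of tested peaks. The members lay at higher coverage than most peaks, with medians of group means from 1.47 to 1.98 per Mb in these 8 groups against 0.599 to 0.941 over all tested peaks, and the part of this in the shares called was not tested. Limma's contrasts with unstimulated cells use libraries of the rule, so their counts are descriptions. They called 111 members higher and 4 lower with OSM, 24 and 7 with IL-13 and 51 and 24 with TNF. For IL-1β these were 21 and 34, and for TGF-β1 13 and 41. Of the 407174 tested peaks they called 17767 in either direction with OSM, of which 13460 higher, and 5311 with IL-13, of which 2482 higher. For TNF these were 16579 and 10597, for IL-1β 12783 and 5871, and for TGF-β1 15118 and 4678. Nothing is read from these counts for the members.

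**Figure D4:**
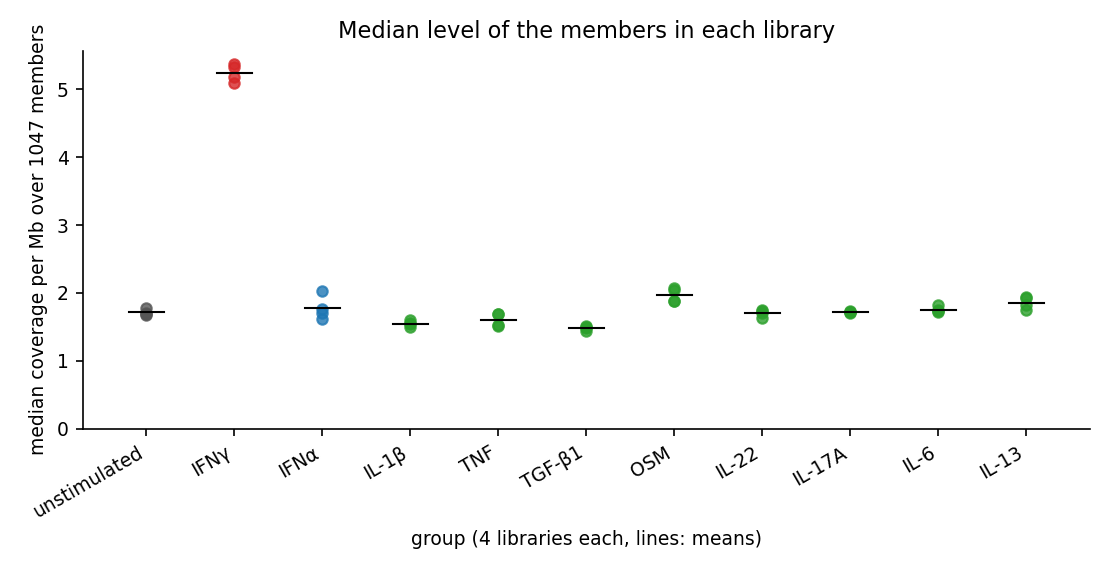
Median coverage per Mb over the 1047 members (y axis) in each of the 44 libraries, by group (x axis), with lines at group means. The 4 IFNγ libraries stand at 5.10 to 5.37 by the choice of members, and the other 40 lie between 1.44 and 2.07.

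OSM gave the most members called higher. The median log2 change from unstimulated cells with OSM was 0.11 over the members and -0.13 over all tested peaks. In the test, OSM called 161 members higher (15.4%, against 6.25% of tested peaks) and 17 lower (1.62%, against 1.89%). Of the peaks opened by both interferons 12.8% were called higher with OSM, and of those between the limits 18.1%, shares that also lay above that of all tested peaks. By motif class, 64 of the 179 members with the GAS string alone were called higher (35.8%) and 34 of the 371 with the ISRE string alone (9.16%), while over all tested peaks these shares were 7.15% and 5.38%. The 64 include the 20 called members with the GAS pair, none of which holds the ISRE string. Members with neither string were called higher in 12.7%, against 6.15% of such tested peaks. With median-of-ratios scaling, 99 members were called higher and 27 lower, of which 51 higher held the GAS string alone, and with scaling by library totals alone 108 were called higher and 24 lower. Over all tested peaks, OSM called 8.14% in either direction in the main setting. That share was 4.79% with median-of-ratios scaling and 5.07% with library totals. Without OSM replicates 2 and 3 those called lower were 10 and 7.

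IL-13, the type 2 cytokine that signals through STAT6, called 85 members higher (8.12%, against 2.03%) and 37 lower (3.53%, against 3.04%). Of the members with the GAS string alone 27 were called higher (15.1%, against 2.45% of such tested peaks), among them the 5 with the GAS pair. The count of 27 fell to 17 without IL-13 replicate 1. Without that library 55 members in all were called higher, and without IL-13 replicate 2 there were 19 called lower. The leading pair lies beside SOCS1, a feedback inhibitor of JAK kinases, and carries the name of its neighbour RMI2. The intronic peak at chr16:11251026-11251526, 1.63 kb from the RMI2 start and 4.92 kb from that of SOCS1, read 2.66, 2.64, 2.07 and 1.27 in unstimulated cells, 3.89, 2.98, 2.77 and 1.45 with IFNα, 9.02, 8.16, 5.70 and 10.5 with IFNγ, and 19.8, 11.2, 15.1 and 19.3 with IL-13. Every IL-13 library stood above every IFNγ library there, and the log2 difference from the other 7 cytokines was 2.56 (SE 0.23, limma, adjusted p = 3.81e-20). The nearby peak at chr16:11248613-11249113 read 6.18, 10.0, 8.30 and 8.89 with IL-13 and 2.92 to 4.91 with IFNγ (2.39, SE 0.26, limma, adjusted p = 3.16e-14). Members called higher with both OSM and IL-13 numbered 23 (2.2%, against 0.514% of tested peaks).

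TNF, which acts mainly through NF-κB, called 52 members higher (4.97%, against 3.15%) and 61 lower (5.83%, against 1.73%). Of the peaks opened by both interferons, 11.4% were called higher and 1.2% lower with TNF. The lead was the LOC100287036-named peak, in an intron of ANKRD11 with an NF-κB string, at 11.9, 15.5, 13.7 and 12.6 per Mb with TNF against an IFNγ mean of 3.65 and an unstimulated mean of 1.35 (2.71, SE 0.24, limma, adjusted p = 6.07e-20). The 4 TNF libraries did not overlap the other 28 of the contrast, which reached 6.63. The MIR151B-named peak in EVL stood at 9.95 to 14.0 with TNF and 3.75 on average with IFNγ (2.08, SE 0.22, limma, adjusted p = 6.71e-15). The largest difference below 0 was at the IGSF23-named peak, at 0.572 to 1.99 with TNF (-1.62, SE 0.21, limma, adjusted p = 5.22e-11), where the mean of the others includes the OSM libraries at 18.3 to 22.5. Of the 61 members called lower, 29 held the GAS string alone (16.2% of such members, against 2.16% of such tested peaks), among them the 7 with the GAS pair. Without TNF replicate 2 the 61 were 39.

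IL-1β called 26 members higher (2.48%, against 2.09%) and 82 lower (7.83%, against 2.91%). The LOC101928782-named peak, between genes and 66.3 kb from the start of PLXNA4, was nearly closed with IL-1β, at 1.11, 0.691, 0.710 and 2.36 per Mb, against an unstimulated mean of 6.96 and an IFNγ mean of 17.9 (-2.17, SE 0.18, limma, adjusted p = 7.54e-22). The MAP9-named peak stood at 0.312 to 1.15 with IL-1β, against means of 3.36 unstimulated and 7.71 with IFNγ (-2.04, SE 0.22, limma, adjusted p = 2.91e-15). At these 2 peaks the direction with IL-1β was opposite to that with IFNγ, also by the unstimulated mean. Without IL-1β replicate 4 the members called fell from 108 to 68, and those called lower from 82 to 50. The members called higher fell from 26 to 17, 17 and 16 without IL-1β replicates 1, 2 and 3.

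TGF-β1, the main fibrogenic cytokine, called 22 members higher (2.10%, against 3.02%) and 120 lower (11.5%, against 5.73%), and 11.8% of the peaks opened by both interferons were also called lower. The LRTM1-named peak, between genes, stood at 23.1, 19.7, 17.8 and 17.4 per Mb with TGF-β1, at or above the 4 IFNγ libraries (14.7, 16.7, 15.0 and 17.4) and above the unstimulated mean of 6.68 (1.72, SE 0.17, limma, adjusted p = 4.88e-16). The EP300-named peak read 1.09, 0, 0.297 and 1.45 with TGF-β1, against 2.30 unstimulated and 9.96 with IFNγ on average (-1.58, SE 0.24, limma, adjusted p = 6.40e-08). The direction of the TGF-β1 calls depended on scaling, with 43 higher and 62 lower under median-of-ratios scaling and 38 and 72 under library totals. Over all tested peaks, TGF-β1 called 8.746% in either direction in the main setting, and 9.365% and 8.673% under these scalings. Of the 1047 members it called 142, 105 and 110 in the same order. Without TGF-β1 replicates 3 and 4 the members called were 94 and 87 in place of 142, those called lower 79 and 72, and without replicates 1 and 2 those called higher were 13 and 14.

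**Figure D5:**
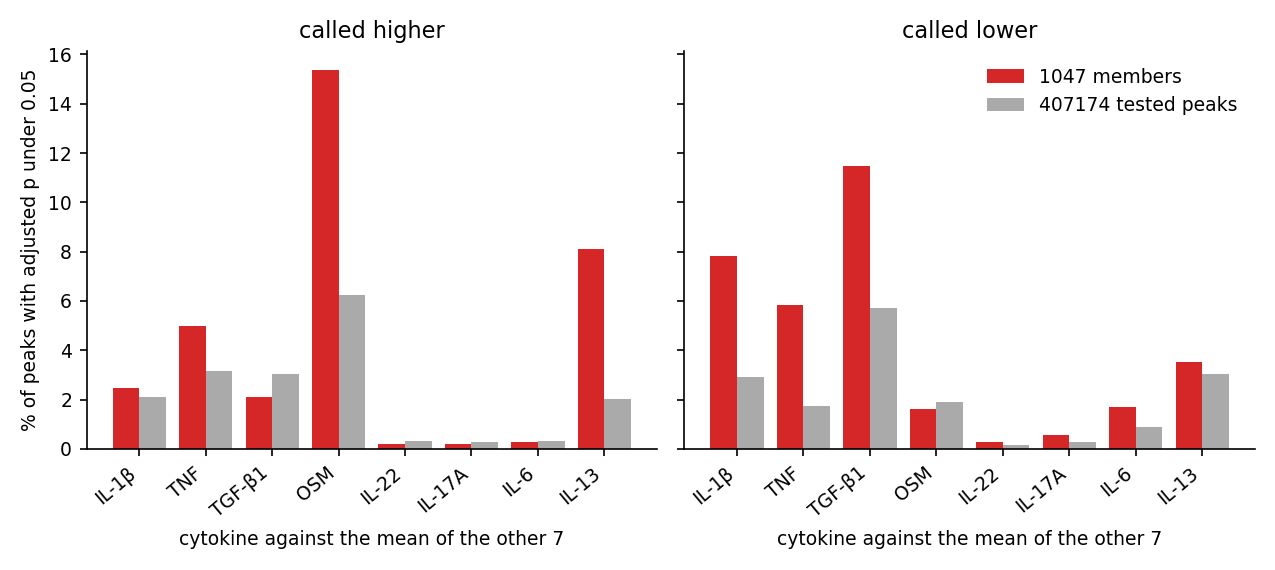
Share of the 1047 members (red) and of all 407174 tested peaks (grey) with an adjusted p under 0.05 in the test of each cytokine against the mean of the other 7 (x axis), called higher (left) or lower (right). Members exceed the background most for OSM (15.4% against 6.25%) and IL-13 (8.12% against 2.03%) among higher calls. Among lower calls they do so for TGF-β1, TNF and IL-1β, while IL-22, IL-17A and IL-6 call under 2% in either direction. All shares are from the main setting, and the counts for OSM and TGF-β1 depended on scaling.

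IL-6, IL-22 and IL-17A touched few members. IL-6 called 3 higher (0.287%, against 0.309%) and 18 lower (1.72%, against 0.892%). Without the shallow IL-6 replicate 4 these were 1 and 3. The PAMR1-named peak rested on that library, which read 10.9 against 4.13, 2.97 and 3.20 in the others, and its adjusted p went from 0.00481 to 0.575 without it (limma). IL-22 called 2 higher (0.191%, against 0.308%) and 3 lower (0.287%, against 0.17%), among the latter the LOC100287036-named peak, where the mean of the others includes the TNF libraries. IL-17A called 2 higher (0.191%, against 0.27%) and 6 lower (0.573%, against 0.293%). Without IL-6 replicate 4, IL-22 called 13 members and IL-17A 18 in place of 5 and 8. Leaving out IL-22 replicate 3 or 4 left 3 or 1, leaving out IL-13 replicate 2 gave 8 for IL-22, and leaving out IL-17A replicate 2 or 4 left 2 or 1. OSM and IL-6 both signal through the receptor chain gp130. At the 22 members with the GAS pair IL-6 libraries had a median of 2.07 per Mb, near the unstimulated 2.18, where OSM libraries had 8.24.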

How the data were processed

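The members and all gene lists were chosen with earlier results of these data known. Bulk ATAC-seq of Ccd18-Co cells was analysed in 44 libraries. The deposited table holds, per the authors' peak names, 407383 peaks with the raw signal of each library as summed base coverage, and not read counts, so the authors' count model could not be used. The submitters' processing notes name MACS2 and hg38. How the deposited peaks were chosen is not given in the sources used here. Peak windows were read as start + 1 to end.

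Each value was scaled to the sum of its library over all peaks and by a trimmed-mean composition factor (trims of 30% of log ratios and 5% of means) and used as log2(coverage per Mb + 0.5), a scale that understates changes of low peaks. The membership rule used the totals alone. Peaks with a log2 mean coverage of -3 or less were left out (209). Tests were two-sided, with limma 3.58.1 in R 4.3.3 (moderated test with trend, Benjamini-Hochberg adjustment over 407174 peaks), each cytokine against the mean of the other 7 in a fit of 32 libraries. Alternatives were other scalings, pseudocounts and filters, no trend, a replicate block and leaving out each library. In data simulated for OSM (40718 peaks), 100 of 100 peaks changed 4-fold, 57 of 100 changed 2-fold and 1 of 40518 unchanged peaks were called. Named peaks were the 12 with the largest difference between IFNγ and IFNα, the strongest of each listed gene, all of the 5 genes with the most members, and up to 2 per cytokine and direction. Those at SOCS1 and PTPN2 and those with the GAS pair were added after their values were seen. Reads carried no molecular identifiers. GBP, APOL and HLA-DRB copies may share reads. Some genes and sequences are not reported here.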

Additional observations from a re-analysis of the deposited data

Results flagged for a closer look

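In 11 of 238 groups of 4 libraries examined, 1 library lay far from the other 3 by Dixon's criterion, which chance alone gives in about 1 of 20 groups. Among unstimulated libraries, EID2 stood at 3.08 per Mb in replicate 4 (others 1.29 to 1.54) and FAS at 4.21 in replicate 1 (others 1.55 to 1.85). Among IFNα libraries, replicate 1 stood at 0.654 at HLA-E (others 1.1 to 1.16), at 3.48 at APOL3 (others 4.34 to 4.52) and at 1.13 at the PTPN2 peak with the GAS pair (others 1.61 to 1.7). IFNα replicate 2 stood at 1.35 at the IRF1 peak starting at chr5:132474714 (others 0.856 to 0.907) and at 3.88 at the PTPN2 peak starting at chr18:12851767 (others 2.32 to 2.56). IFNα replicate 3 stood at 0 at C22orf42 (others 0.565 to 0.657) and at 2.55 at the GBP5 peak starting at chr1:89262584 (others 1.49 to 1.66). NLRC5 stood at 5.52 in IFNγ replicate 4 (others 2.63 to 3.12), and PAMR1 at 10.9 in IL-6 replicate 4 (others 2.97 to 4.13), the shallowest library.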

How the results depend on the processing

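The membership depended on its thresholds. The rule gave 406 peaks with an IFNα change under 0, 1699 with an IFNγ minus IFNα difference of 1 or more in place of the IFNα limit, and 1960 with IFNγ coverage of 1 or more. With a pseudocount of 1 it gave 892, of which 730 were among the 1047, and without single libraries 1001 to 1109. Without 1 unstimulated library, 798 to 820 of the 1047 were kept. Without 1 IFNα library 879 to 965 were kept, and without 1 IFNγ library 927 to 947. Without single libraries the members called were 124 to 187 for OSM, 86 to 158 for IL-13, 79 to 129 for TNF, 68 to 120 for IL-1β, 87 to 162 for TGF-β1, 4 to 25 for IL-6, 1 to 13 for IL-22 and 1 to 18 for IL-17A, and those with the GAS string alone called higher were 53 to 64 for OSM and 17 to 29 for IL-13. Without the trend, TGF-β1 called 87 members, IL-6 3, IL-17A 1 and IL-22 0. With a minimum mean coverage of 1 per Mb, IL-17A called 15 and IL-22 8. In the central 200 bases, the GAS string was present in 14.71% of members, the stricter one in 4.39%, the ISRE string in 31.14%, the NF-κB string in 1.24% and the AP-1 string in 16.52%, in a shorter window by construction. For the other settings the cause was not tested. Correlations of the deviations of same-numbered replicates were -0.016 to 0.045, none over 0.1, so the numbers were not taken to pair the samples, although 16 of 32 libraries were closest to 1 of their own number, against 8 with no relation. A replicate block gave 178 members for OSM, 122 for IL-13, 114 for TNF, 144 for TGF-β1, 108 for IL-1β, 6 for IL-22, 10 for IL-17A and 21 for IL-6. Of 32 named changes with another cytokine, 22 kept their call under every alternative run, 10 lost it under at least 1 and 0 reversed. The counts by GAS string and GAS pair were chosen after seeing the data. Precision is limited by the depth of the shallowest library and by levels near 1 per Mb.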
